A study of Homo sapiens with 12 samples.

Results

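Exon use and total counts were described for 10 genes of the Hippo pathway: the coactivators YAP1 and WWTR1 (TAZ), their DNA-binding partners TEAD1, TEAD2, TEAD3 and TEAD4, the kinases LATS1 and LATS2, and the upstream regulators NF2 (merlin) and WWC1 (KIBRA). These 10 genes were listed by name, and their exon events were found by matching strand, exon length and intron lengths to annotated transcripts, out of 12978 genes with a matched event. The series compared GS689.Li, written GS689 here, with PC3E. Both are human prostate cancer lines derived from PC3, GS689 with mesenchymal and PC3E with epithelial character. Both carry the genotype label wild type, were kept in the same medium with G418 and were harvested after a night in culture. Both RNA-seq and RASL-seq were run, with 3 libraries per line and assay. RASL-seq is a targeted method in which pairs of probes are joined where they meet on a splice junction, and the joined probes are sequenced and counted. The members had 6 of 2023 exon events in the RASL-seq table, in YAP1, TEAD1, TEAD4 and NF2, and 141 of 114816 events in the RNA-seq table, over 77 exons and all 10 genes.

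The header of the RNA-seq table names its libraries as a numbered set 1 and set 2 without a cell line. RNA-seq values are therefore given by library and set with no test, and every comparison of GS689 with PC3E rests on RASL-seq. RASL-seq libraries held between 615758 and 954120 counts in GS689 and between 754338 and 911476 in PC3E. PC3E replicate 2 stood apart from the other libraries of its line: the chi-square per degree of freedom between event proportions was 4.66 and 6.72 in its pairs, against 2.35 for the remaining PC3E pair and 1.80 to 2.36 among the GS689 libraries. Of the epithelial markers, the 3 with a tested RASL-seq total (LSR, OCLN and SPINT2) were lower in GS689, and the mesenchymal intermediate filament gene VIM averaged 4255 ± 122 CPM in GS689 and 185 ± 25.2 CPM in PC3E (SD, n = 3 each), where CPM is a count scaled to a common library total. Neither KLK2 nor KLK3, secreted proteases of prostate luminal cells, had a total that could be tested. Whether the numbered replicates came from separate cultures is not stated in the labels, so the spread behind the p-values may be technical.

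The Hippo pathway is a kinase cascade in which LATS kinases phosphorylate YAP1 and TAZ and so keep them out of the nucleus. Unphosphorylated YAP1 and TAZ enter the nucleus and bind TEAD proteins, which carry the DNA-binding domain that the coactivators lack, and drive genes of growth and adhesion such as CTGF and CYR61. NF2 and WWC1 act upstream, at the membrane, to promote LATS activity, and loss of NF2 causes tumours of the nerve sheath. YAP1 and NF2 are both known in several splice forms: YAP1 with or without a second WW domain and with short insertions in the leucine zipper region, and NF2 with alternative C-terminal ends.

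The variable segments on which the values below turn are short enough to be read in full. They are given 5′ to 3′ on the gene's strand, as GENCODE release 29 transcripts have them, with hg19 positions taken from the tables. The YAP1 segments are the 48 nt cassette exon at chr11:102080248-102080295 (plus strand, 16 codons) and the extension of the preceding exon between its alternative 5′ splice sites, at chr11:102076806-102076817 (plus strand). No letters of these are in capitals.
YAP1 48 nt exon: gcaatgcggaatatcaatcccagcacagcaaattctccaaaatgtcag
YAP1 12 nt extension: gtgaggccacag
The 12 nt exons of 3 TEAD genes lie at chr11:12900436-12900447 (TEAD1, plus strand), chr19:49859216-49859227 (TEAD2, minus strand) and chr6:35447082-35447093 (TEAD3, minus strand). They are shown together because their inclusion differed widely between the genes. Capitals mark the positions that are not the same in all 3.
TEAD1 12 nt exon: gTAACAaGcAtg
TEAD2 12 nt exon: gCTCTGaAcGtg
TEAD3 12 nt exon: gCCATGaAcCtg
The NF2 segment is the coding start of the alternative exon that begins at chr22:30079009 (plus strand), shown because its last codon ends the protein, with the in-frame stop codon in capitals.
NF2 45 nt exon, coding part: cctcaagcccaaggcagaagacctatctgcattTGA

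In RASL-seq, the YAP1 48 nt exon was included less often in GS689 than in PC3E. Its inclusion was 28.9, 32.4 and 29.3% in GS689 replicates 1 to 3, against 56.0, 55.7 and 58.5% in PC3E replicates 1 to 3. The lines did not overlap, and the libraries of each line lay close together. Mean inclusion was 30.2 ± 1.94% in GS689 and 56.7 ± 1.53% in PC3E (SD, n = 3 each), a difference of -26.5 percentage points (SE 1.43). An event was called when its p, adjusted over all events by the Benjamini-Hochberg method, was under 0.05 and its mean inclusion moved by 5 points or more. The YAP1 exon was called with an adjusted p of 0.00794 in the moderated quasi-binomial model. It was the 1 member exon called of 4 tested, where 5.69% of all 1124 tested events were called, with 3.56% of the tested events lower and 2.14% higher in GS689. Counts were low: the exon had 24 inclusion and 59 skipping counts in GS689 replicate 1, the deepest library of that line, and its exact (Clopper-Pearson) 95% interval ran there from 19.5 to 39.9%. In PC3E replicate 2, the deepest of its line, 44 inclusion and 35 skipping counts gave an interval of 44.1 to 66.9%. Such intervals cover counting error only, and they are wider than the spread of the 3 libraries of either line. The SD and SE above come from that spread, so they understate the uncertainty at these counts. Without GS689 replicate 1 the difference was -25.9 points with an adjusted p of 0.0609, which no longer passed.

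The other 3 tested member exons were included in most transcripts of both lines, and none was called. The 174 nt exon of TEAD1 (chr11:12923487-12923660), coding, had 99.7, 99.6 and 100% inclusion in GS689 and 100, 97.0 and 99.1% in PC3E (adjusted p = 0.637, moderated quasi-binomial model). In NF2, the 123 nt coding exon at chr22:30035079-30035201 had 90.5, 89.6 and 89.1% inclusion in GS689 and 88.8, 92.0 and 91.3% in PC3E (adjusted p = 0.833 in the same model). Its neighbour of 126 nt at chr22:30032740-30032865 was skipped even less, with a mean inclusion of 99.5 ± 0.417% in GS689 and 99.5 ± 0.199% in PC3E (SD, n = 3 each). The differences of these 3 exons were 1.08 points (SE 0.912) for TEAD1, -0.96 points (SE 1.02) for NF2 123 nt and 0.03 points (SE 0.267) for NF2 126 nt. TEAD4 had a pair of events on the array of probes, and neither could be tested. Its 129 nt exon had 1255 inclusion and 3 skipping counts over the 6 libraries, and its 255 nt exon had 31 counts in all.

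**Figure D1:**
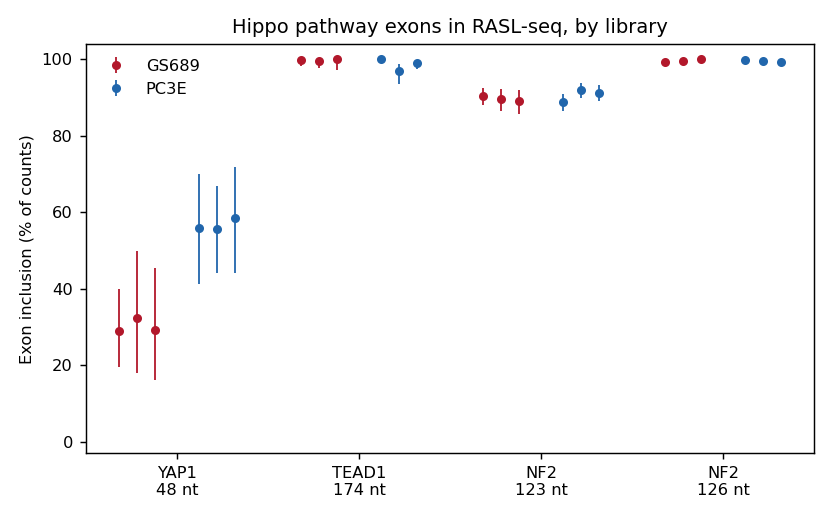
Inclusion (% of counts) of the 4 tested member exons in RASL-seq, with 1 point per library and exact 95% binomial intervals. The GS689 libraries (red, left) of the YAP1 48 nt exon sit between 28.9 and 32.4% and the PC3E libraries (blue, right) between 55.7 and 58.5%, while the lines overlap for the other 3 exons.

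By the rule fixed for likeness, the 5 tested RASL-seq events of other genes with the smallest root mean square difference from the YAP1 exon over the 6 libraries were in TERF1 (3.80 points), PRRC2C (8.12), TCF7L2 (8.89), DNM1L (8.89) and an unnamed event on chromosome 7 (9.04). The TERF1 exon of 60 nt averaged 30.5 ± 2.21% in GS689 and 52.9 ± 2.58% in PC3E (SD, n = 3 each). That of TCF7L2, 73 nt long, averaged 26.1 ± 3.52% in GS689 and 66.6 ± 6.57% in PC3E. Likeness was measured on the same libraries that call the YAP1 exon, so these events are given as a description.

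In RNA-seq, 47 of the 141 member events, in 9 genes, passed the depth filter: 10 counts per library on average, no library without counts, and 10 counts or more of the rarer form in total. Of the 94 that did not, 9 fell short on depth and 85 had fewer than 10 skipping counts over all 6 libraries. A difference between the sets was counted when their libraries did not overlap and the set medians differed by at least 5 percentage points. By this description 8 member events stood apart, 3 higher and 5 lower in set 2, all in YAP1, TEAD1 and NF2. This is 17.0% of the 47, where 7.70% of all 40375 tested events stood apart by the same rule. Several of these events share an exon or a junction and are not independent. Without the 5 point minimum, 15 member events did not overlap, where 18.8% of all tested events did not. Both set medians were at or above 95% for 24 of the 47, and the median of the absolute differences was 0.695 points, against 1.22 points over all tested events.

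**Figure D2:**
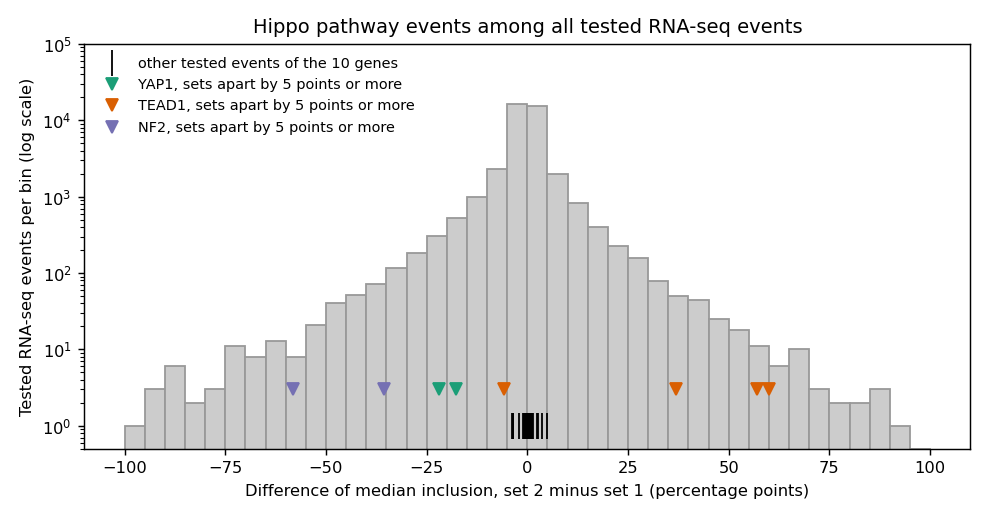
Difference of median inclusion between set 2 and set 1 (percentage points) for all 40375 tested RNA-seq events in bins of 5 points (grey bars, log scale), with the 47 tested member events marked beneath. The 8 events whose sets stand apart by 5 points or more are coloured by gene and run from -58.3 points (NF2) to 60.1 points (TEAD1), and the other 39 (black ticks) lie near 0.

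The YAP1 48 nt exon was also variable in RNA-seq, where it was measured from both 5′ splice sites of the preceding exon. From the upstream splice site, inclusion was 43.3, 42.4 and 42.8% in set 2 and 58.0, 64.7 and 68.3% in set 1, with a depth of 641 to 1025 counts in set 2 libraries and 752 to 1114 in set 1 libraries. From the downstream splice site, which adds the 12 nt extension, inclusion was 58.5, 66.1 and 58.3% in set 2 and 72.5, 79.7 and 76.2% in set 1. The sets stood apart in both, by -21.9 and -17.7 points between their medians. Among all tested events, 3.10% and 4.53% differed at least as much. Both events take in the reads of the same junction downstream of the exon, so they are not independent, and levels from the 2 splice sites are not compared. The choice of splice site itself overlapped between the sets: among junctions that skip the 48 nt exon, the downstream site took 25.2, 19.3 and 24.1% in set 2 and 24.3, 23.3 and 30.2% in set 1.

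The other variable exon of YAP1 is the 114 nt exon at chr11:102056749-102056862, whose 38 codons encode the second WW domain, a module that binds proline-rich motifs. It was included in most transcripts, at 84.9, 82.3 and 81.6% in set 2 and 86.0, 85.9 and 84.6% in set 1. The sets overlapped, with medians 3.63 points apart. The remaining 3 tested YAP1 events joined downstream exons at 98.4% or more in each library. WWTR1, the gene of TAZ, had 6 events over 4 exons, and 1 could be tested: its 134 nt exon was included at 99.5 to 99.9% in all 6 libraries. Its other 5 events had between 1 and 9 skipping counts over all libraries, so the WWTR1 exons in this table were close to constant.

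The TEAD genes share an exon of 63 nt, and TEAD1, TEAD2 and TEAD3 have the 12 nt exon directly after it, whereas GENCODE has 0 exons of that length in TEAD4. The 12 nt exons keep the reading frame and add 4 codons. The letters are the same at 5 of 12 positions in all 3 genes, at 9 between TEAD2 and TEAD3, at 6 between TEAD1 and TEAD3 and at 5 between TEAD1 and TEAD2. In TEAD1, the family member whose factor was first described on a viral enhancer, the exon was included at 65.6, 83.0 and 77.0% in set 2 and at 14.5, 21.1 and 20.0% in set 1. The sets stood far apart, by 57.0 points between medians, and 0.218% of all tested events differed at least as much. Set 2 libraries had 174 to 268 counts for it and set 1 libraries 35 to 120, and the widest exact interval, that of set 1 replicate 2, ran from 9.49 to 37.7%. Measured against a junction to a later exon, the same 12 nt exon had 90.6, 72.3 and 83.2% inclusion in set 2 and 35.1, 0 and 23.1% in set 1, on only 3 to 12 counts per library in set 1.

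In TEAD2 the corresponding exon was mostly skipped in both tested events. Between its neighbouring exons it was included at 23.8, 19.8 and 29.9% in set 2 and 27.5, 25.3 and 31.6% in set 1. Measured against the junction that also skips the next exon, it was included at 7.91 to 16.7% in set 2 and 9.49 to 11.1% in set 1, so its level depends on the skipping junction it is set against. The sets overlapped in both events. Against a junction that reaches the exon at 49865630, the 12 nt exon had 219 inclusion and 4 skipping counts over the 6 libraries. These were too few skipping counts for the event to be tested. In TEAD3 it was nearly constant: 936 inclusion counts stood against 1 skipping count over the 6 libraries, a skipping share of 0.107% (exact 95% interval 0.0027 to 0.593%). Between neighbouring exons, the levels of the 12 nt exon ran from TEAD2 over TEAD1 to TEAD3 in set 2, with no overlap between TEAD2 and TEAD1. In set 1, TEAD1 and TEAD2 were the low pair, and their libraries ran from 14.5 to 21.1% in TEAD1 and from 25.3 to 31.6% in TEAD2.

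TEAD1 had other events whose sets stood apart. Its 63 nt exon (chr11:12886385-12886447), measured against the junction that leaps to the exon starting at 12902552, was included at 93.9, 89.8 and 88.1% in set 2 and at 79.5, 48.2 and 52.9% in set 1. The lowest depth was 10 counts, in set 1 replicate 2, and without that library the medians were 23.6 points apart in place of 36.9. This event rests on 35 skipping counts in all, and the exon was seldom skipped by other junctions. Its other 3 events had too few skipping counts to be tested: 522 inclusion and 2 skipping counts in set 2 and 73 and 0 in set 1 for the junction to the 12 nt exon, 316 and 2 in set 2 and 215 and 5 in set 1 for that to the 135 nt exon, and 171 and 0 in set 2 and 47 and 1 in set 1 for that to the 174 nt exon. A non-coding exon of 153 nt near the start of the gene (chr11:12696956-12697108) was included at 60.5, 64.1 and 63.6% in set 2 and at 69.4, 69.6 and 65.9% in set 1. That difference of -5.79 points lay just past the 5 point minimum, and it came under the minimum without set 1 replicate 1 (-4.08 points), without set 1 replicate 2 (-4.01 points) and without length correction (-4.18 points). Just under the minimum, with overlapping sets, was an event of the 135 nt exon of TEAD1, measured from the exon before the 63 nt exon, at 4.86 points. In the deeper event of the same 135 nt exon, measured from the 63 nt exon, the medians were 96.3% in set 2 and 96.2% in set 1, 0.14 points apart. In their tested events, the TEAD1 exons of 174 nt and 141 nt were included at 98.1% or more in every library of both sets.

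Other variable TEAD exons overlapped between the sets. The 108 nt and 117 nt versions of one TEAD2 coding exon, which share a splice site, ran from 76.9 to 81.4% and from 70.7 to 77.3% in set 2, and from 76.4 to 88.1% and from 72.0 to 86.0% in set 1. The 129 nt coding exon of TEAD4 (chr12:3126564-3126692), which follows its 63 nt exon, had 89.6, 91.5 and 86.6% inclusion in set 2 and 93.1, 85.9 and 89.8% in set 1. Near the start of TEAD4, 3 non-coding versions of an exon with the same upstream splice site overlapped too. Like the TEAD2 pair, they are set against the same skipping counts, so no level is the share of transcripts with that version. The 93 nt version had 95.2, 95.4 and 94.6% inclusion in set 2 and 97.4, 91.6 and 90.7% in set 1, the 249 nt version 77.4 to 84.6% in set 2 and 84.0 to 94.0% in set 1, and the 406 nt version 82.6 to 89.4% in set 2 and 84.8 to 94.5% in set 1. In their tested events, the TEAD4 exons of 255, 65, 63 and 140 nt were included at 94.1% or more in each library. Untested events with few counts went lower, with 18 inclusion and 4 skipping counts for the 63 nt exon and 11 and 2 for the 140 nt exon. The 63 nt exon of TEAD3 had 94.1, 97.9 and 100% inclusion in set 2 and 95.6, 95.1 and 97.0% in set 1. A partly coding TEAD2 exon of 238 nt, measured against a pair of upstream splice sites, had 92.5 to 95.8% in set 2 and 94.9 to 96.4% in set 1 from one, and 98.7 to 99.2% in set 2 and 99.7 to 100% in set 1 from the other, where the sets did not overlap and the difference was -0.79 points.

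RASL-seq counted skipping of the 129 nt exon of TEAD4 3 times in 1258 counts, a share of 0.238% (exact 95% interval 0.0492 to 0.695%). The assays also differed for the 123 nt exon of NF2, at 89.1 to 90.5% in GS689 and 88.8 to 92.0% in PC3E in RASL-seq, and at 96.8 to 98.0% in set 2 and 96.4 to 98.3% in set 1 in RNA-seq. For these genes, which lie on the plus strand, RASL-seq reads the upstream junction of an exon alone, so levels are compared within an assay.

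The NF2 exon that begins at chr22:30079009 gave the most negative differences of the 47 tested member events in RNA-seq. As the 45 nt version, it was included at 60.9, 58.0 and 61.9% in set 2 and at 96.4, 94.0 and 97.1% in set 1. Set 1 libraries were near constant use and set 2 libraries well below, with medians 35.6 points apart. Of the 45 nt, 33 code for 11 amino acids before the in-frame stop that begins at position 34, printed above in capitals. The reading frame of transcripts with this exon therefore ends there, with the C terminus known as that of merlin isoform 2. Without the exon, the reading frame runs on into the next exon, with the C terminus of isoform 1. A 60 nt version with the same upstream splice site and the same stop was included at 31.6, 31.1 and 38.2% in set 2 and at 89.9, 82.1 and 91.2% in set 1. Both versions are set against the same skipping junction, which was counted 149 to 189 times in set 2 libraries and 21 to 40 times in set 1 libraries, and share the reads of the upstream junction. Each level is therefore inclusion against skipping alone, and not the share of transcripts that use that version. The 60 nt version differed by -58.3 points between medians, and 0.206% of all tested events differed at least as much. This difference is not independent of that of the 45 nt version. The other 7 tested NF2 events were included at 89.7% or more in every library and did not differ by 5 points.

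**Figure D3:**
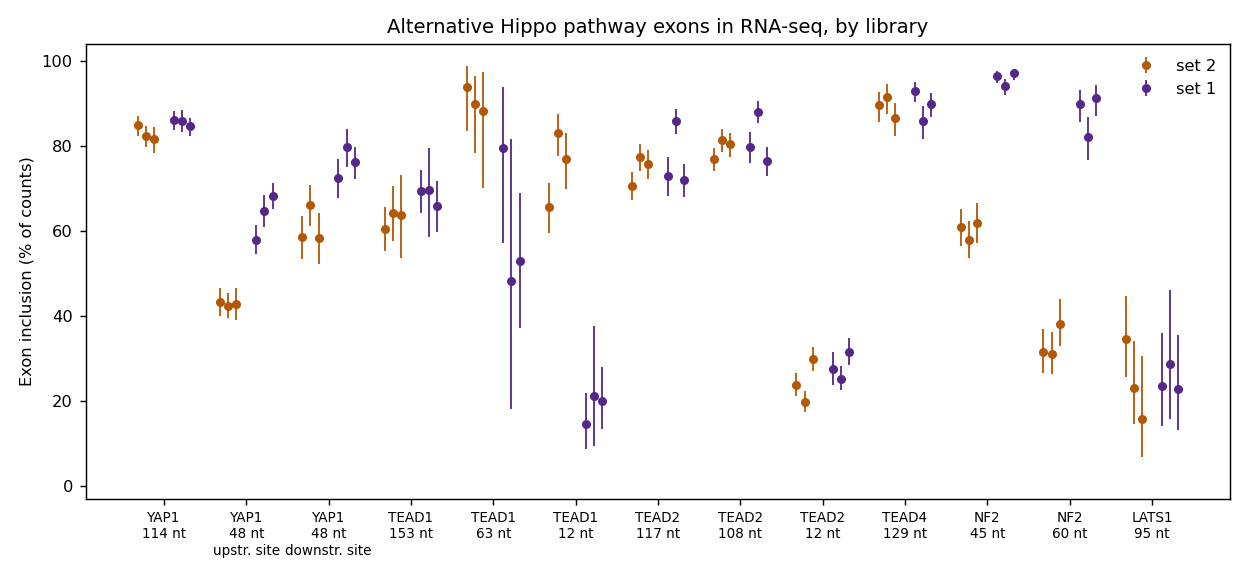
Length-corrected inclusion (% of counts) of variable member exons in RNA-seq, with 1 point per library and exact 95% binomial intervals. Set 2 libraries (orange, left) lie below set 1 libraries (purple, right) for YAP1 48 nt, TEAD1 153 nt and NF2, and above them for TEAD1 12 nt and 63 nt, and the sets overlap for YAP1 114 nt, the 3 TEAD2 exons, TEAD4 129 nt and LATS1 95 nt.

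The kinases and WWC1 showed little variation that could be compared. LATS1 had 1 tested event, a 95 nt exon (chr6:150018228-150018322) that is annotated only in transcripts of the nonsense-mediated decay class and brings an in-frame stop at its position 58. It was included at 34.6, 23.1 and 15.8% in set 2 and at 23.5, 28.7 and 22.7% in set 1, from 30 to 95 counts in set 2 libraries and 32 to 51 in set 1 libraries. The sets overlapped, and the spread within set 2 was wider than that within set 1. The 3 events of LATS2 had 1, 2 and 3 skipping counts against 824, 1324 and 1467 inclusion counts over the 6 libraries. In WWC1, a pair of non-coding exons was nearly always skipped, with at most 0.489% inclusion of the 58 nt exon in set 2 and 1.13% in set 1, and at most 1.20% of the 125 nt exon in set 2 and 1.60% in set 1, and its other 5 tested events were included at 95.1% or more in every library. The sets did not overlap for the WWC1 events of 58 nt (-0.62 points), 125 nt (-0.24), 153 nt (-0.67) and 168 nt (-1.20). All of these differences were under the 5 point minimum.

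Total counts per gene were compared next. A total is the sum of inclusion and skipping counts over a gene's events, scaled to the library's total as CPM, so it grows with the number of events and is compared between libraries but not between genes. In bulk RNA, less RNA per cell and fewer cells with the RNA cannot be told apart. In RASL-seq, NF2 was the 1 of 4 members with a called total. Its totals were 1798, 1725 and 1892 CPM in GS689 and 2319, 2540 and 2262 CPM in PC3E, with no overlap. The log2 change was -0.39 (SE 0.113, adjusted p = 0.0229, limma-voom with Benjamini-Hochberg adjustment), a call shared by 29.8% of all 1317 genes tested. The call was lost without GS689 replicate 1 (adjusted p = 0.0781), GS689 replicate 2 (0.0699) or PC3E replicate 3 (0.0518), and from skipping counts alone (0.192), while the log2 change stayed between -0.43 and -0.35 when single libraries were left out.

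TEAD1 totals were 335, 294 and 209 CPM in GS689 and 467, 256 and 373 CPM in PC3E, a log2 change of -0.35 (SE 0.237, adjusted p = 0.284, limma-voom). Without PC3E replicate 2, the library that stood apart, the change was -0.59 with an adjusted p of 0.0356. TEAD4 averaged 242 ± 27.8 CPM in GS689 and 278 ± 45.5 CPM in PC3E (SD, n = 3 each), with a log2 change of -0.20 (SE 0.172). YAP1 totals were low and uneven, at 85.1, 44.7 and 66.4 CPM in GS689 and 59.0, 102 and 59.4 CPM in PC3E, and its log2 change of -0.14 (SE 0.308) turned positive without GS689 replicate 2 or PC3E replicate 2. YAP1 has 1 event in RASL-seq, so this total is the sum of both forms of the 48 nt exon event and no separate measure of the gene. It was not called (adjusted p = 0.768, limma-voom), and with its wide SE it cannot show that the amount of YAP1 RNA was unchanged.

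In RNA-seq, a total was counted as different when the sets did not overlap and their medians differed at least 1.5-fold, which 30.8% of all 16909 genes tested did. Of the 10 members, TEAD2 was higher in set 2, and TEAD3 and LATS2 were lower. TEAD2 had 129, 120 and 119 CPM in set 2 and 60.0, 82.8 and 76.8 CPM in set 1, a ratio of medians of 1.57. TEAD3 had 5.78, 7.46 and 7.42 CPM in set 2 and 12.1, 14.5 and 13.8 CPM in set 1, a ratio of 0.54. LATS2, a YAP target as well as a kinase of YAP, had 5.07, 4.39 and 4.22 CPM in set 2 and 7.41, 5.42 and 7.36 CPM in set 1, a ratio of 0.60 that came under 1.5-fold without set 1 replicate 1 or without set 1 replicate 3. When the event with most counts stood for the gene, TEAD2 came under 1.5-fold and the sets of LATS2 overlapped.

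NF2 did not overlap either, with 114, 108 and 96.9 CPM in set 2 and 161, 134 and 151 CPM in set 1, but its ratio of 0.72 was under 1.5-fold. For WWC1 the sets overlapped, with 63.4, 30.4 and 57.4 CPM in set 2 and 106, 56.4 and 90.4 CPM in set 1. The sets of the coactivators overlapped as well: YAP1 had 222, 231 and 154 CPM in set 2 and 203, 148 and 210 CPM in set 1, and WWTR1 had 103, 197 and 76.7 CPM in set 2 and 63.9, 99.9 and 80.3 CPM in set 1. TEAD1 (29.3 to 67.5 CPM in set 2 and 16.4 to 48.9 CPM in set 1), TEAD4 (71.4 to 91.9 CPM in set 2 and 80.4 to 116 CPM in set 1) and LATS1 (1.60 to 3.96 CPM in set 2 and 1.34 to 2.39 CPM in set 1) also overlapped. On the CPM scale the median log2 ratio of all genes was 0.13, and it was 0.03 after scaling by trimmed means of log ratios. With that scaling the ratios were 1.53 for TEAD2, 0.50 for TEAD3, 0.57 for LATS2, 0.66 for NF2 and 0.63 for WWC1, all of them past the rule, and 1.01 for YAP1.

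**Figure D4:**
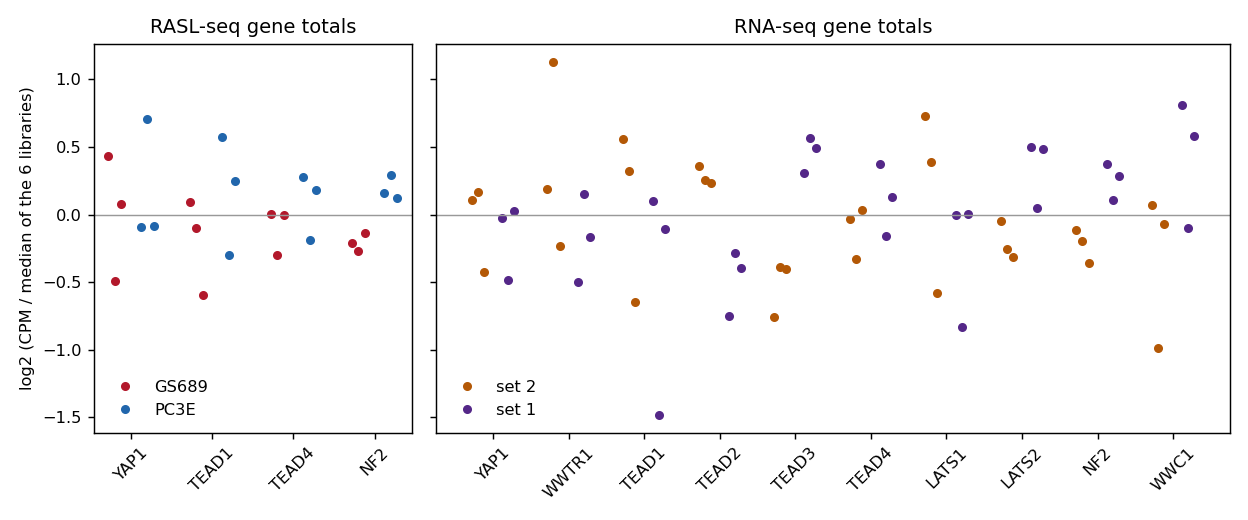
Totals per gene and library as log2 of CPM over the median of the 6 libraries of the assay (0 is that median), RASL-seq on the left and RNA-seq on the right. In RASL-seq only the GS689 libraries (red) of NF2 lie wholly below the PC3E libraries (blue), and in RNA-seq set 2 (orange) lies wholly above set 1 (purple) for TEAD2 and wholly below it for TEAD3, LATS2 and NF2.

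A further 78 gene symbols of the pathway were taken from fixed lists. These cover kinases and adaptors, upstream and junction proteins, partners of YAP1 and TAZ, subunits of the STRIPAK phosphatase complex (which opposes the kinase cascade) and YAP targets. CYR61, CTGF and MPP5 are also entered under a newer symbol (CCN1, CCN2 and PALS1), so the listed genes are fewer than 78. In RASL-seq, 14 of their events in 9 genes could be tested, of which 1 rose and 1 fell in GS689, where the shares of all tested events were 2.14% and 3.56%. A 192 nt exon of MAP4K4, a kinase upstream of LATS, was included at 92.4 ± 0.867% in GS689 and 82.9 ± 5.21% in PC3E (SD, n = 3 each, adjusted p = 0.0109, moderated quasi-binomial model). A 114 nt exon of FGFR1OP2, a STRIPAK subunit, was included at 68.0 ± 2.69% in GS689 and 81.5 ± 2.14% in PC3E (SD, n = 3 each, adjusted p = 0.0011, same model). Neither call held under limma on the log2 ratio of counts with a pseudocount of 0.5, where the adjusted p was 0.126 for MAP4K4 and 0.107 for FGFR1OP2.

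Of 10 tested totals among these genes, 2 rose and 3 fell in GS689, against 16.4% and 13.4% of all genes tested. RUNX2, a DNA-binding partner of YAP1, had 4.10, 3.63 and 1.62 CPM in GS689 and 26.0, 42.8 and 22.4 CPM in PC3E (log2 change -3.03, adjusted p = 0.0011, limma-voom). TGFB2, a secreted growth factor on the target list, had 11.3, 2.42 and 4.86 CPM in GS689 and 26.0, 33.7 and 31.4 CPM in PC3E (log2 change -2.35, adjusted p = 0.0043, limma-voom). Both calls held under every one of the 12 alternatives. GS689 libraries held at most 954120 counts, so each GS689 CPM value of these genes stands for no more counts than its number. Both genes were thus near the floor in GS689, and the size of their log2 changes is uncertain. MAP4K4 rose by 0.57 (adjusted p = 0.0214, limma-voom), BTRC, the substrate receptor of the ubiquitin ligase that degrades YAP1, rose by 0.55 (adjusted p = 0.0423), and AMOTL1, an angiomotin that holds YAP1 in the cytoplasm, changed by -1.20 (adjusted p = 0.0492). Leaving out single libraries ended the MAP4K4 call in 3 of 6 cases, the BTRC call in all 6 and the AMOTL1 call in 5 of 6.

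In RNA-seq, 233 events in 51 of the listed genes could be tested. Of these events 5 stood apart higher and 9 lower in set 2, where the shares of all tested events were 3.35% and 4.35%. Those higher were 3 events of MAP4K4 and 1 each of MOB1B, a cofactor of LATS, and FAT1, a giant cadherin. The 192 nt exon of MAP4K4 had 68.4, 65.9 and 65.5% inclusion in set 2 and 47.1, 40.2 and 47.2% in set 1. Those lower were 3 events of STRN3 and 1 of STRN4, scaffolds of STRIPAK, 1 of FGFR1OP2, and 1 each in MAP4K2, PATJ, F3 and AREG. The 60 nt exon of STRN4 had 47.4, 55.8 and 62.7% inclusion in set 2 and 82.2, 78.2 and 92.3% in set 1. The 114 nt exon of FGFR1OP2 had 59.5, 52.4 and 61.8% in set 2 and 66.0, 75.3 and 72.2% in set 1.

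RNA-seq totals of 65 of the listed genes were measured. By the 1.5-fold rule 12 were higher and 10 lower in set 2, where the shares of all genes tested were 19.1% and 11.7%. The target genes moved both ways. CTGF had 11.5, 9.27 and 13.2 CPM in set 2 and 1.74, 2.48 and 2.35 CPM in set 1, and AXL and NT5E were higher in set 2 as well. CYR61, its close relative, had 89.3, 67.6 and 122 CPM in set 2 and 214, 139 and 163 CPM in set 1, and TGFB2, F3, AREG and AMOTL2 were likewise lower. Near the floor were F3 in set 2 (0.30 to 0.36 CPM) and AREG in set 2 (0.031 to 0.171 CPM) and set 1 (0.174 to 0.459 CPM). The upstream kinases STK3 and STK4 (MST2 and MST1) lay in opposite directions: STK3 had 28.8, 23.9 and 24.7 CPM in set 2 and 42.2, 49.1 and 40.1 CPM in set 1, and STK4 had 14.4, 14.4 and 9.04 CPM in set 2 and 8.91, 5.20 and 8.63 CPM in set 1. Among the partners SMAD2, SMAD3, LIMD1 and WTIP were higher and RUNX2 lower in set 2, and among STRIPAK genes PPP2CA, SLMAP and STRN3 were higher. Among the upstream genes DCHS2 was higher, near the floor at 0.37 CPM or less in every library, and CRB3, PATJ and RASSF6 were lower.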

How the data were processed

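The authors' deposited data are 2 tables. Each cell of the RASL-seq table holds a pair of counts, with libraries in columns, per the file headers. Each RNA-seq cell holds, per the file headers, 3 counts of inclusion or skipping joined by commas, in 2 numbered sets, with effective lengths of 102 to 202 for inclusion and 101 for skipping. Because several values share a cell, these deposited cells are not a plain count unit. The tools named are kallisto 0.43.0 and STAR 2.5.2a, with hg19 and no role for either, per the submitters' processing notes. The first RASL-seq count was taken as inclusion, since its share correlated with RNA-seq inclusion over 1640 events (r = 0.87). It is the junction on the lower-coordinate side of the exon alone, which is upstream for genes on the plus strand. In 51 of 51 event pairs it was identical to the skipping count of another event that uses the same junction. On the other side of the exon, 0 of 41 such pairs were identical. Empty cells, 0 to 60 per library, were read as 0. Reads shared between events are counted more than once, so a sum over the table is not sequencing depth.

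Gene names come from exon and intron lengths matched to 1 gene of GENCODE release 29, for 95.6% of RASL-seq and 95.1% of RNA-seq events. No coordinates were converted. Inclusion was length-corrected in RNA-seq alone. RASL-seq inclusion was tested per event with a quasi-binomial model, dispersions moderated with limma 3.58.1 (R 4.3.3), and totals with limma-voom after scaling by trimmed means of log ratios, each with Benjamini-Hochberg adjustment over the whole table, and tested on simulated data first. Member events past the filter are given by library, or by their range where inclusion was near constant or versions share a splice site, and other pathway genes are named when called or past the description rule. Members, lists and tests were chosen with earlier results of these data known. No per-sample column was left out (0 unused).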

Additional observations from a re-analysis of the deposited data

How the results depend on the processing

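RASL-seq inclusion calls numbered 64, and 28 under limma on the log2 ratio of counts with a pseudocount of 0.5, and RASL-seq totals called numbered 393, and 241 from skipping counts alone. In RNA-seq, 3108 events stood apart, and 1820 at a minimum of 10 points, and 5215 totals did, and 2608 from skipping counts alone. Leaving out single libraries gave 44 to 81 inclusion calls, 276 to 473 totals called, 4047 to 4595 RNA-seq events and 5291 to 6163 RNA-seq totals. The YAP1 48 nt exon kept its direction under all 14 alternatives and its call under 13, with differences of -27.6 to -25.6 points when libraries were left out and adjusted p-values of 0.0029 to 0.0609 over all alternatives. The uncalled YAP1 total changed sign from skipping counts alone (0.47), without GS689 replicate 2 (0.12) and without PC3E replicate 2 (0.10), with values of -0.39 to 0.12 when libraries were left out. The uncalled NF2 126 nt exon changed sign without GS689 replicate 3 (-0.20 points), PC3E replicate 2 (-0.016) and PC3E replicate 3 (-0.038), with values of -0.20 to 0.22. The cause of the sign changes without single libraries was not tested. RNA-seq totals of NF2 from skipping counts alone had a log2 ratio of 1.86, opposite to that of all counts. A sum of skipping counts depends on inclusion as well as on the total. Skipping of the NF2 exon at chr22:30079009, entered for both its versions, was counted 506 times in set 2 and 87 times in set 1. WWTR1 passed the 1.5-fold rule without set 2 replicate 3 (log2 ratio 0.90), and YAP1 from skipping counts alone (0.60). The YAP1 values from skipping counts likewise take in the skipping of its 48 nt exon. Same-numbered RASL-seq libraries of the lines correlated in their deviations at 0.067, 0.072 and 0.0091 for inclusion and at 0.27, 0.17 and -0.014 for totals. Libraries with unlike numbers correlated at -0.14 to 0.087 for inclusion and at -0.27 to 0.099 for totals. These few values do not settle whether the numbers pair the libraries, and the main models treat them as unpaired. A replicate block gave 88 inclusion calls and 465 totals called, and changed no member's call. Depth limits the YAP1 exon in RASL-seq (37 to 83 counts per library) and the TEAD1 exons in set 1.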
